A study of Drosophila melanogaster with 5 samples.

Results

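The 37 genes described here are neuronal and synaptic genes of Drosophila melanogaster, measured in larval hemolymph, the circulating fluid that carries the blood cells (hemocytes). They were chosen by gene symbol from what they encode: neuronal RNA-binding proteins, the machinery of synaptic vesicle release, ion channels, and the enzymes, transporters and receptors of neurotransmitters. All 37 were found among the 17807 genes of the count table. The study compared gene expression after the Hox gene abd-A was expressed under Cg-Gal4, a driver active in hemocytes and in the fat body, so the transgene was driven in both tissues. Cg-Gal4 > UAS abd-A larvae (abd-A, 3 libraries) came from homozygous Cg-Gal4 females crossed to homozygous UAS-abd-A males. Cg-Gal4 > CS larvae (control, 2 libraries) carried the driver crossed to Canton-S, the wild-type strain, and no UAS transgene. Larvae of both groups were 96 to 102 h old after egg laying. They were dissected in buffer, and each library holds the pelleted hemolymph cells of 20 pooled larvae, so that the p-values measure the spread between 5 pools.

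A nerve terminal releases transmitter when a synaptic vesicle fuses with the plasma membrane. The vesicle SNARE nSyb pairs with the membrane SNAREs Syx1A and Snap25, Rop and unc-13 prepare the complex, complexin (cpx) holds it, and calcium that enters through the channel cac is sensed by Syt1. Elav is the standard marker of differentiated neurons in the fly. Most of these genes are best known from the nervous system, whereas membrane fusion proteins such as Syx1A and Rop also serve secretion in other Drosophila cells.

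In hemolymph of abd-A larvae, 21 of the 37 genes were downregulated, 3 were upregulated and 13 did not pass the test. A gene was called at a Benjamini-Hochberg adjusted p under 0.05 in edgeR's quasi-likelihood test and a change of at least 2-fold. Of the 37 genes, 56.8% were downregulated and 8.11% upregulated, against 12.7% downregulated and 11.0% upregulated of all 11624 genes tested. The log2 fold change of abd-A over control ran from -8.86 for VGlut to 1.74 for Rop, and its median was -3.54 over the 37 genes and -0.17 over all genes tested. Every abd-A library lay below both controls for 30 genes and above both for 3, where 29.3% and 27.3% of all genes tested did so. The upregulated genes were Syx1A, Rop and sei. The groups overlapped for Rbp9, brp, Shaw and mAChR-A only.

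**Figure D1:**
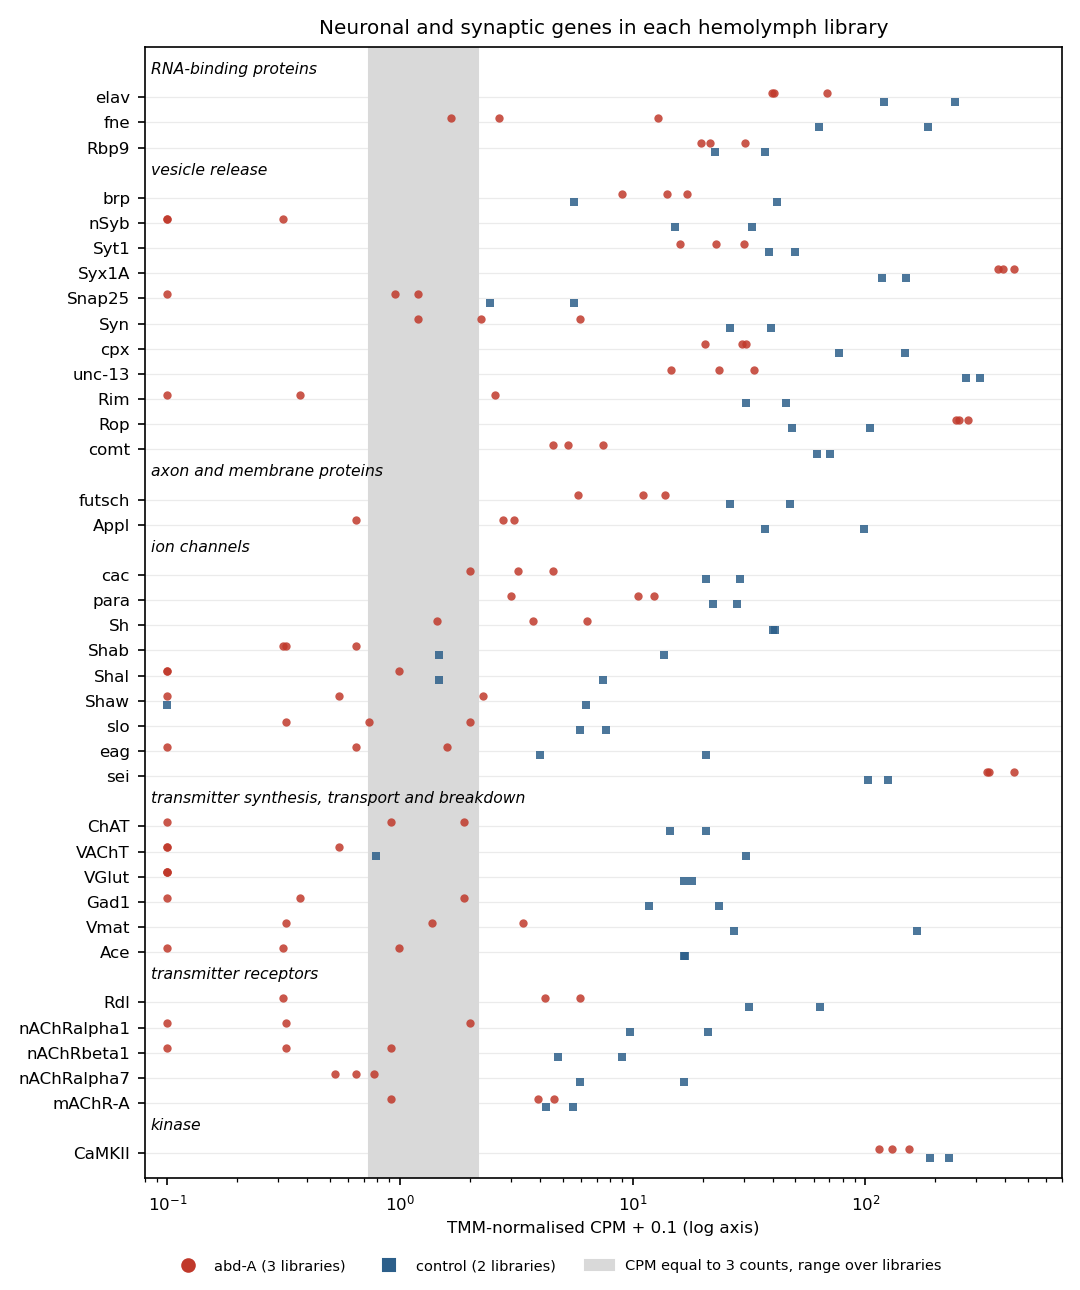
Level of each of the 37 genes in each library, on a log axis of TMM-normalised CPM (counts scaled to library size) plus 0.1, with 3 abd-A libraries (circles) and 2 control libraries (squares). The grey band spans the CPM that 3 counts amount to, 0.638 to 2.06 over the 5 libraries. Most circles lie left of the squares, several within or left of the band, and Syx1A, Rop and sei have their circles on the right.

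**Figure D2:**
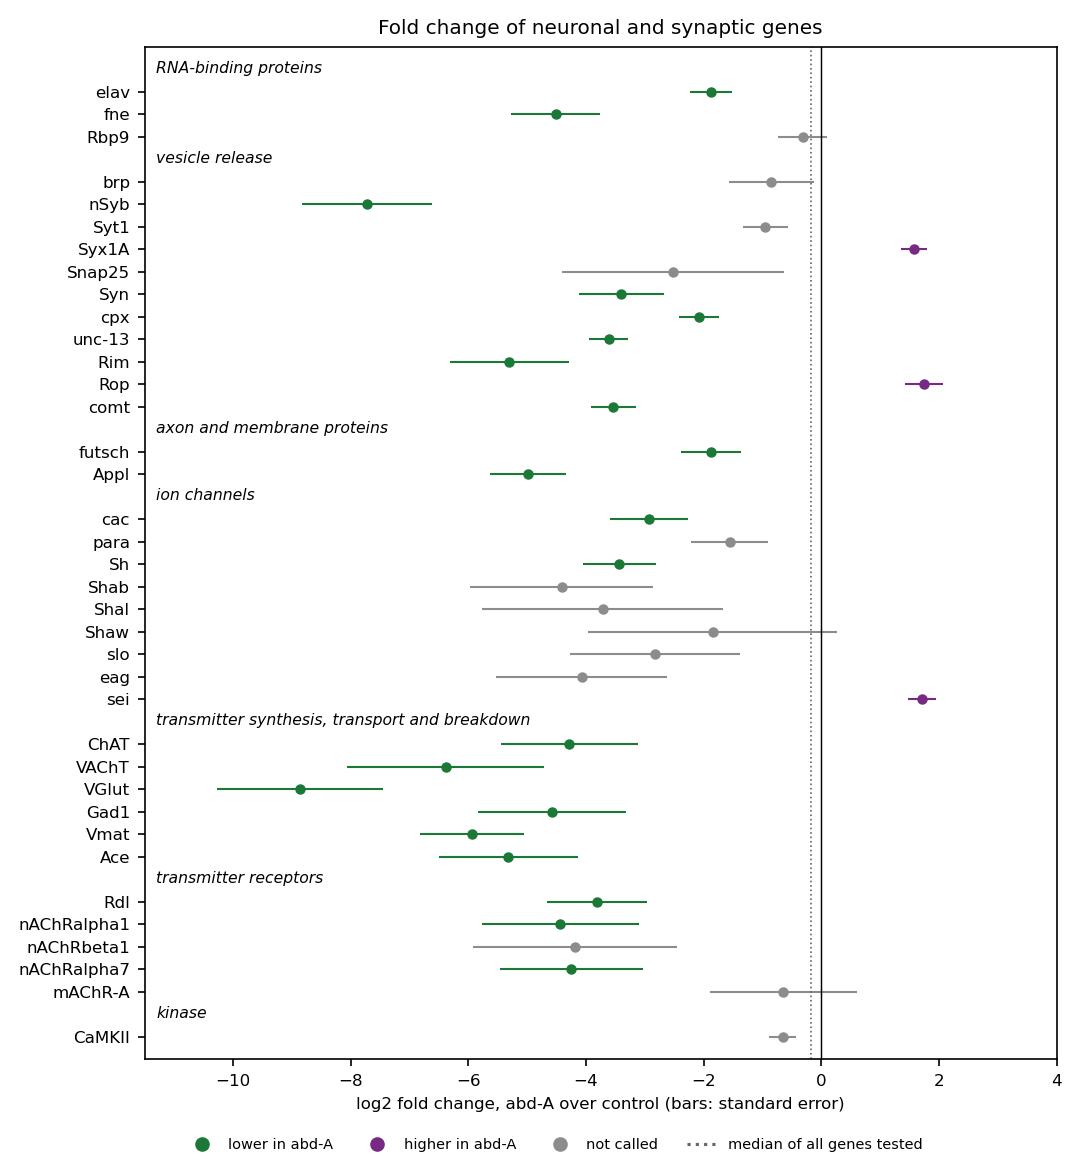
Log2 fold change of each gene, abd-A over control, with its standard error from the edgeR fit, and the median of all genes tested (-0.17) as a dotted line. Genes called lower, called higher or not called are coloured apart. The fitted value of VGlut, at 0 counts in every abd-A library, depends on the prior count of the fit and is no measured fold.

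Levels below are TMM-normalised CPM and are listed in replicate order. Genes above 3 counts in a library are called detected there. The abd-A libraries held 3848911 to 4959111 counts on genes and the controls 1252969 and 2567624, so that the floor was lower in the abd-A libraries. Even so, 25, 23 and 22 of the 37 genes were detected in abd-A replicates 1, 2 and 3, against 33 and 37 in control replicates 1 and 2. Over all 17807 genes, 9438, 9543 and 9464 were detected in the abd-A libraries, against 9634 and 11180 in the controls. All 5 libraries detected 17 of the 37 genes. At 3 counts or fewer in every abd-A library were 6 genes, namely nSyb, Shab, VAChT, VGlut, nAChRbeta1 and nAChRalpha7. Of these, 4 (nSyb, VGlut, nAChRbeta1 and nAChRalpha7) were detected in both controls, a pattern that 5.45% of all genes tested showed. In bulk RNA, fewer cells that express a gene and less RNA per cell cannot be told apart.

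The 37 genes together took 0.121%, 0.141% and 0.130% of the counts in abd-A libraries, against 0.217% and 0.214% in the controls. Most of that share in the abd-A libraries came from Syx1A, Rop and sei. Without these 3, chosen after their values were seen, the other 34 genes took 0.0285% (0.0270 to 0.0300), 0.0403% (0.0383 to 0.0424) and 0.0312% (0.0296 to 0.0327) in the abd-A libraries. In the controls they took 0.183% (0.175 to 0.190) and 0.179% (0.173 to 0.184). The 95% exact binomial intervals, which cover counting error only, do not overlap between the groups.

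**Figure D3:**
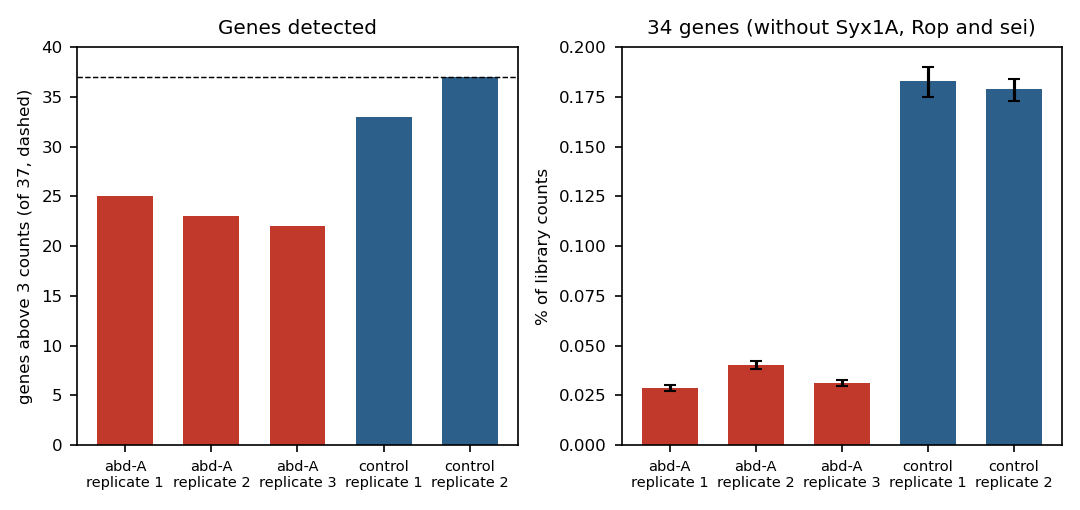
Left, the number of the 37 genes above 3 counts in each library (dashed line, all 37). Right, the share of library counts, in percent, taken by the 34 genes other than Syx1A, Rop and sei, with 95% exact binomial intervals. The abd-A bars reach 22 to 25 genes and 0.0285% to 0.0403%, the control bars 33 and 37 genes and 0.183% and 0.179%.

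The 3 RNA-binding proteins are paralogs that process neuronal transcripts. The gene elav (X:509235-523226) was at 40.5, 68.7 and 39.6 CPM in the abd-A libraries, against 120.2 and 243 CPM in the controls. It was detected with over 100 counts in each library, and its groups did not overlap. It fell by 1.88 ± 0.36 on the log2 scale (SE; edgeR adjusted p = 0.00482). The gene fne (found in neurons; X:12917477-12950417) was at 1.57, 12.8 and 2.55 CPM in the abd-A libraries, against 63.2 and 186 CPM in the controls. It was downregulated as well, with a log2 fold change of -4.52 ± 0.76 (edgeR adjusted p = 0.00268). The libraries of both groups were uneven for fne, and its value was -5.91 without abd-A replicate 2, -5.12 without control replicate 1 and -3.54 without control replicate 2, called in each case. Rbp9, which also acts in the ovary, was at 21.5, 30.2 and 19.6 CPM in the abd-A libraries, against 37.1 and 22.5 CPM in the controls. Its groups overlapped and it was not called (-0.32 ± 0.42, edgeR adjusted p = 0.599).

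Of the 11 genes of vesicle release, 6 were downregulated, 2 upregulated and 3 not called. The vesicle SNARE nSyb (3L:1630348-1637752) had 0, 0 and 1 counts in abd-A libraries, against 22 and 84 counts in the controls. At 15.1 and 32.6 CPM in the controls it lay well above the floor of each abd-A library. The ratio of its pooled, scaled counts was 0.00296 with an exact 95% interval of 7.4e-05 to 0.0169 (edgeR adjusted p = 0.00115). Its fitted log2 fold change was -7.72, and -9.20 without abd-A replicate 3. The intervals of this and the other pooled ratios below cover counting error only, not the spread between libraries. The active zone proteins unc-13 and Rim prime and dock vesicles. The gene unc-13 (4:867824-912331) was at 14.5, 23.4 and 33.0 CPM in the abd-A libraries, against 310.5 and 270.4 CPM in the controls. It fell by 3.61 ± 0.33 on the log2 scale, with the lowest adjusted p among the 37 genes (edgeR adjusted p = 9.6e-05). Rim had 11, 1 and 0 counts in abd-A libraries, against 66 and 79 in the controls (-5.30 ± 1.01, edgeR adjusted p = 0.00501), and -7.88 without abd-A replicate 1, which held nearly all of its abd-A counts.

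The remaining downregulated genes of this group act at different steps of the cycle. Comatose (comt), the NSF ATPase that takes used SNARE complexes apart, was at 7.38, 5.18 and 4.47 CPM in the abd-A libraries, against 61.8 and 70.6 CPM in the controls. Its replicates were close in both groups, and it fell by 3.54 ± 0.39 on the log2 scale (edgeR adjusted p = 0.000271). Synapsin (Syn), which tethers vesicles in the reserve pool, was at 5.81, 1.09 and 2.13 CPM in the abd-A libraries, against 39.2 and 26.0 CPM in the controls. Its log2 fold change was -3.40 ± 0.72 (edgeR adjusted p = 0.00848), and -4.29 without abd-A replicate 1, its highest abd-A library. Complexin (cpx) was at 29.5, 30.5 and 20.4 CPM in the abd-A libraries, against 76.9 and 148 CPM in the controls (-2.08 ± 0.34, edgeR adjusted p = 0.00238).

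Syx1A and Rop went the other way. Syx1A (3R:24101600-24105763) was at 389, 373 and 433 CPM in the abd-A libraries, against 118 and 150.1 CPM in the controls. All abd-A libraries were above both controls, a 2.97-fold rise (log2 1.57 ± 0.22, edgeR adjusted p = 0.00113). Rop (3L:4136359-4138996), the Munc18 protein that binds syntaxin, was at 252, 246 and 276 CPM in the abd-A libraries, against 48.1 and 105 CPM in the controls. It rose 3.34-fold (log2 1.74 ± 0.32, edgeR adjusted p = 0.00439), and its log2 fold change was 2.40 without control replicate 2. Snap25, the third SNARE of the complex, was close to the floor, with 0, 4 and 4 counts in abd-A libraries, against 8 and 6 in the controls, and was not called (-2.53 ± 1.89, edgeR adjusted p = 0.344). Of the 3 genes of the synaptic SNARE complex, nSyb thus fell and Syx1A rose. Snap25 lay below both controls in every abd-A library but was near the floor and was not called.

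Syt1 and the active zone scaffold bruchpilot (brp) were not called. Syt1 was at 15.9, 30.0 and 22.8 CPM in the abd-A libraries, against 38.5 and 49.7 CPM in the controls. Every abd-A library was below both controls, but the difference missed the threshold (-0.95 ± 0.38, edgeR adjusted p = 0.0931) and passed it only without control replicate 1 among the fits that left out a library (-1.13, edgeR adjusted p = 0.0322). For brp the controls stood on both sides of the abd-A libraries, with 8.94, 13.9 and 17.0 CPM in the abd-A libraries, against 5.50 and 41.5 CPM in the controls (-0.85 ± 0.72, edgeR adjusted p = 0.404). Its value was -1.65 without control replicate 1 (edgeR adjusted p = 0.00914) and 1.25 without control replicate 2 (edgeR adjusted p = 0.186), so that its direction rested on which control was used.

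Both axon and membrane proteins were downregulated. Appl, the fly relative of the amyloid precursor protein, was at 2.68, 0.545 and 2.98 CPM in the abd-A libraries, against 37.1 and 98.5 CPM in the controls. The groups did not overlap, and Appl fell by 4.98 ± 0.64 on the log2 scale (edgeR adjusted p = 0.000676), and its log2 fold change was -4.14 without control replicate 2. Futsch, a microtubule-associated protein of axons and synapses, was at 11.0, 13.6 and 5.75 CPM in the abd-A libraries, against 26.1 and 47.3 CPM in the controls. Its call was weak. The log2 fold change of -1.87 ± 0.51 (edgeR adjusted p = 0.0261) moved between -2.24 (without control replicate 1, where the call was kept) and -1.40 when a library was left out. Its adjusted p was 0.0901 without abd-A replicate 1, 0.0559 without abd-A replicate 2, 0.0905 without abd-A replicate 3 and 0.0659 without control replicate 2.

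Among the 9 ion channels, 2 were downregulated, 1 was upregulated and 6 were not called, several of the 6 at very low counts. The calcium channel of nerve terminals, cac, was at 3.13, 1.91 and 4.47 CPM in the abd-A libraries, against 28.9 and 20.6 CPM in the controls. It fell by 2.94 ± 0.66 on the log2 scale (edgeR adjusted p = 0.0111), and missed the threshold without abd-A replicate 1 (-2.93, edgeR adjusted p = 0.0573). Shaker (Sh), the A-type potassium channel, was at 1.34, 6.27 and 3.62 CPM in the abd-A libraries, against 39.8 and 40.7 CPM in the controls. The controls nearly coincided, and Sh fell by 3.43 ± 0.62 on the log2 scale (edgeR adjusted p = 0.00398). The voltage-gated sodium channel para was at 2.91, 12.3 and 10.4 CPM in the abd-A libraries, against 22.0 and 27.9 CPM in the controls, and was not called (-1.55 ± 0.65, edgeR adjusted p = 0.107).

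Seizure (sei; 2R:24047411-24053035), an ERG-type potassium channel, was the channel that rose. It was at 341, 435 and 333 CPM in the abd-A libraries, against 125 and 102 CPM in the controls. This is a 3.26-fold rise with no overlap (log2 1.70 ± 0.24, edgeR adjusted p = 0.000987). Per kb of exon, sei was at 113 CPM in the abd-A libraries and 34.7 CPM in the controls, Rop at 97.8 and 29.0, and Syx1A at 95.6 and 32.1. On that scale these 3 genes and CaMKII had the highest control levels of the 37, and all 4 had at least 70 counts in every library.

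The other potassium channels were near the detection limit. Eag, a relative of sei, had 0, 2 and 7 counts in abd-A libraries, against 30 and 10 in the controls (-4.07 ± 1.46, edgeR adjusted p = 0.0671), and its value followed the libraries kept. It was -4.86 without control replicate 2, where it was called (edgeR adjusted p = 0.0105), -2.46 without control replicate 1 (edgeR adjusted p = 0.413) and -5.35 without abd-A replicate 3 (edgeR adjusted p = 0.0905). Shab had 1, 2 and 1 counts in abd-A libraries, against 2 and 35 in the controls. Only control replicate 2 detected it, the ratio of pooled counts was 0.0340 (0.00879 to 0.0945), and it was not called with all libraries (edgeR adjusted p = 0.064). It was called without control replicate 1 (edgeR adjusted p = 0.00946), could not be tested without control replicate 2, and was called with all libraries by the DESeq2 Wald test and limma-voom. Shal (4, 0 and 0 counts in abd-A libraries, against 2 and 19 in the controls), Shaw (2, 8 and 0, against 0 and 16) and the calcium-activated channel slo (1, 7 and 3, against 11 and 15) were not called by edgeR, and limma-voom called slo (adjusted p = 0.0476).

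All 6 genes of transmitter synthesis, transport and breakdown were downregulated, with a median log2 fold change of -5.63. Their CPM summed to 5.14, 4.36 and 1.49 in the abd-A libraries, against 238 and 125 in the controls. They serve different transmitters: ChAT, VAChT and Ace acetylcholine, VGlut glutamate, Gad1 GABA, and Vmat the monoamines. VGlut (2L:2400295-2410662), the glutamate transporter of synaptic vesicles, had 0 counts in all 3 abd-A libraries, against 24 and 46 counts in the controls. With 3 counts allowed in each abd-A library, VGlut was at least 24.2-fold lower there (edgeR adjusted p = 0.00396). Vmat, which loads dopamine, serotonin and the like into vesicles, was at 0.224, 3.27 and 1.28 CPM in the abd-A libraries, against 166 and 27.2 CPM in the controls. The controls differed widely, yet both lay above every abd-A library (-5.94 ± 0.89, edgeR adjusted p = 0.00141). The value for Vmat was -6.92 without abd-A replicate 2, -4.12 without control replicate 1 and -6.78 without control replicate 2, called each time.

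The cholinergic genes were low in every abd-A library. Acetylcholinesterase (Ace), which breaks acetylcholine down, had 4, 0 and 1 counts in abd-A libraries, against 24 and 43 in the controls (-5.32 ± 1.19, edgeR adjusted p = 0.0105). Its value was -6.74 without abd-A replicate 1. The enzyme that makes acetylcholine, ChAT, had 8, 3 and 0 counts in abd-A libraries, against 21 and 53 in the controls (-4.29 ± 1.17, edgeR adjusted p = 0.0253). The call for ChAT was lost without abd-A replicate 2 (edgeR adjusted p = 0.0964) and without abd-A replicate 3 (edgeR adjusted p = 0.0523), and its value was -5.39 without abd-A replicate 1. VAChT, the vesicular acetylcholine transporter, rested on control replicate 2. It had 2, 0 and 0 counts in abd-A libraries, against 1 and 79 in the controls. The pooled ratio for VAChT was 0.00785 (0.000935 to 0.0293; edgeR adjusted p = 0.022), and the call was lost when any 1 of the abd-A libraries was left out (-8.64, -5.97 and -5.86, edgeR adjusted p = 0.0645, 0.0928 and 0.0808). It was -7.37 without control replicate 1 and could not be tested without control replicate 2. ChAT and VAChT share 606 exon bases on the same strand, so their reads are not fully separate. Gad1, the enzyme of GABA synthesis, had 8, 1 and 0 counts in abd-A libraries, against 34 and 30 in the controls (-4.58 ± 1.27, edgeR adjusted p = 0.027). Its call was lost without abd-A replicate 2, abd-A replicate 3 or control replicate 1 (edgeR adjusted p = 0.103, 0.0650 and 0.0634), and its value was -6.74 without abd-A replicate 1.

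Of the 5 receptors, 3 were downregulated and 2 not called, and all 3 calls depended on 1 library or more. Rdl, a GABA-gated chloride channel, was at 5.81, 4.09 and 0.213 CPM in the abd-A libraries, against 63.9 and 31.4 CPM in the controls (-3.81 ± 0.84, edgeR adjusted p = 0.0102). Without abd-A replicate 2 its adjusted p was 0.0522 (edgeR), and without abd-A replicate 1 its value was -4.50. Nicotinic receptors are the main excitatory receptors of the fly brain. For nAChRalpha1 there were 1, 7 and 0 counts in abd-A libraries, against 14 and 54 in the controls (-4.43 ± 1.33, edgeR adjusted p = 0.0369). That call was lost without abd-A replicate 1, abd-A replicate 3 or control replicate 2 (edgeR adjusted p = 0.133, 0.0913 and 0.128), with a value of -6.72 without abd-A replicate 2. For nAChRalpha7 there were 3, 2 and 2 counts in abd-A libraries, against 24 and 15 in the controls, a pooled ratio of 0.0564 (0.0213 to 0.128; edgeR adjusted p = 0.0307). That call was lost when any 1 of the abd-A libraries was left out (edgeR adjusted p = 0.0938, 0.0902 and 0.104) and without control replicate 1 (-3.35, edgeR adjusted p = 0.196), and the fitted log2 fold change of -4.25 was -4.85 without control replicate 2.

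The beta subunit nAChRbeta1 had 1, 3 and 0 counts in abd-A libraries, against 13 and 12 in the controls. Its pooled ratio was 0.0503 (0.0127 to 0.146), but the fitted change missed the threshold (-4.19 ± 1.74, edgeR adjusted p = 0.102). The muscarinic receptor mAChR-A was low in both groups and overlapped, at 4.47, 0.817 and 3.83 CPM in the abd-A libraries, against 4.12 and 5.43 CPM in the controls (-0.65 ± 1.25, edgeR adjusted p = 0.729). CaMKII, the calcium-dependent kinase of synapses, was at 114, 153 and 131 CPM in the abd-A libraries, against 229 and 190.1 CPM in the controls. Its abd-A libraries all lay below both controls, yet CaMKII missed the threshold (-0.66 ± 0.23, edgeR adjusted p = 0.0588).

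Of the 24 called genes, 16 kept their call in every fit without 1 library in which they could be tested, including elav, fne, nSyb, unc-13, comt, VGlut, Vmat, Syx1A, Rop and sei. The 8 that lost it at least once were futsch, cac, ChAT, VAChT, Gad1, Rdl, nAChRalpha1 and nAChRalpha7. Counts were low for many of the downregulated genes: 7 of the 21 had under 10 counts summed over the abd-A libraries, and 14 had 10 or more. The genes ranged in exon length from 2.28 to 23.31 kb, with a median of 7.19 kb against 1.87 kb for all genes tested. Over the 37 genes, Spearman's rho with the log2 fold change was -0.06 for exon length and 0.22 for mean control CPM, where the genes share the same 5 libraries.

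Exons of 8 of the 37 genes overlap those of another gene on the opposite strand, against 34.9% of all genes tested. The library kit keeps the strand of the RNA, but the strand setting used for counting is not given in the sources used here. Annotated antisense RNAs carried more counts per base than the protein-coding genes opposite them, by a median of 6.32, 7.95 and 5.51 times in the abd-A libraries and 9.62 and 6.05 times in the controls. Counts on genes, given above, were also few in every library beside the read depth and alignment rate that the paper reports. The reason for that gap was not tested. Whether reads were counted on the strand of the kit could not be settled from the count table. Each level is therefore the count assigned to a gene, which may not be RNA of its own strand. This limit holds for every count given here, also for genes with no partner. The most covered were Vmat, where CG13330 spans 2129 bases (26.2% of its exons) with 0, 0 and 0 counts in abd-A libraries, against 48 and 71 in the controls, and unc-13. There, asRNA:CR43425 covers 15.6% of the exon bases, with 3, 15 and 13 counts in abd-A libraries, against 128 and 335 in the controls. A second antisense RNA, asRNA:CR44029, covers 3.12%, with 73, 84 and 74 counts in abd-A libraries, against 343 and 626 in the controls. These are near the counts of unc-13 itself (65, 86 and 155, against 452 and 697), and so are the fitted changes (-3.71 and -3.61). Whether reads of these RNAs were counted on unc-13 was not tested. Both antisense RNAs fell. The third partner of unc-13, CR43361, covers 6.47% and was not called, with 28, 15 and 24 counts in abd-A libraries, against 10 and 35 in the controls. Syn (Timp, 4.29%), elav (arg, 6.28%), sei (gammaSnap1, 11.0%, and ppk29, 3.63%), Rbp9 (Ts, 1.76%), VGlut (CG18641, 39 bases) and mAChR-A (CG13578, 111 bases) also have partners. Timp and arg were downregulated as well, and gammaSnap1, ppk29 and Ts were not called. On its own strand, Syx1A shares 447 bases (10.7%) with eIF4EHP, which was not called. Among the 29 genes with no overlap on the opposite strand, 16 were downregulated and 2 upregulated, and their median log2 fold change was -3.72.

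Other neuronal genes moved less uniformly. Of 106 further genes listed by role, 83 could be tested, of which 23 (27.7%) were downregulated and 4 (4.82%) upregulated, and the median log2 fold change was -2.13. Genes of neuronal identity and axons had the lowest median of the 6 lists (-3.17), with 7 of 10 downregulated. The transcription factor prospero (pros), expressed in neural progenitors and neurons, had 17, 20 and 11 counts in abd-A libraries, against 560 and 2051 in the controls (-7.27 ± 0.43, edgeR adjusted p = 1.3e-05). The neuronal precursor factor nerfin-1 (-5.34, edgeR adjusted p = 0.00508) and the sodium pump subunit nrv3 (-4.58, edgeR adjusted p = 9.6e-05) fell as well. Of the other transmitter receptors, 8 of 24 were downregulated (median -3.02). The dopamine receptor Dop1R1 had no count in any abd-A library, against 25 and 5 in the controls, and mAChR-B (-5.70) and nAChRalpha4 (-4.35) were downregulated too.

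The other genes of the vesicle cycle changed in both directions. Of 17, 5 were downregulated and 4 upregulated. Syt4 (-5.32), the vesicle GTPase Rab3 (-4.19) and the Rim-binding protein Rbp (-3.89) were the lowest of those called. Synaptojanin (Synj, a lipid phosphatase of endocytosis; 2.25), Liprin-alpha (an active zone scaffold; 1.45) and dynamin (shi; 1.32) were the highest called, and dynamin in particular serves endocytosis in all cells. Of 12 other ion channels, edgeR called 1, Elk (-4.55, edgeR adjusted p = 0.00128), and the DESeq2 Wald test and limma-voom called 2 each. Of 6 tested genes of transmitter synthesis and transport edgeR called 0 (median -2.63), while 1 was lower at an unadjusted p under 0.05 and 1 was called by the DESeq2 Wald test and by limma-voom.

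Markers of other cell types also differed between the groups, and their part in the result for the neuronal genes was not tested. The hemocyte markers Hml and NimC1, which check the tissue, were detected in every library. Hml was abundant, at 4445, 3997 and 4912 CPM in the abd-A libraries, against 13750 and 16880 CPM in the controls. NimC1 was at 111, 163 and 140 CPM in the abd-A libraries, against 492 and 435 CPM in the controls. Both were downregulated (log2 fold change -1.78 and -1.75). The driven gene abd-A itself had 620, 474 and 638 counts in abd-A libraries, against 0 and 21 in the controls. All 7 lamellocyte genes rose, and their summed level was 18780 to 21820 CPM in the abd-A libraries, against 1215 and 1664 CPM in the controls. Of 9 hemocyte genes 6 fell and 1 rose (summed 12230 to 15010 CPM in the abd-A libraries, against 33380 and 36850 CPM in the controls), and all 4 crystal cell genes fell.

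Markers of solid tissues were present in the hemolymph of the controls and lower in the abd-A libraries for most lists. Of 15 muscle genes, 12 fell, with a summed level of 1076 to 1270 CPM in the abd-A libraries, against 2391 and 4981 CPM in the controls. The muscle myosin Mhc had 161, 253 and 197 counts in abd-A libraries, against 306 and 2079 in the controls. Of 7 fat body genes, 6 fell, and the storage protein Lsp2 had 1, 1 and 11 counts in abd-A libraries, against 518 and 12175 in the controls. Of 9 tested genes of epidermis and imaginal discs, 3 fell (309 to 375 CPM in the abd-A libraries, against 666 and 2164 CPM in the controls). Of 7 tested testis genes, 4 fell, and betaTub85D had 0, 1 and 3 counts in abd-A libraries, against 38 and 44 in the controls. Midgut genes went the other way, with 2 of 6 upregulated and 1 downregulated, and of 4 tested salivary gland genes edgeR called 0 (1 lower and 1 higher at an unadjusted p under 0.05 and by the DESeq2 Wald test, and 1 lower by limma-voom). That list summed to 1.79, 55.3 and 27.0 CPM in the abd-A libraries, against 32.3 and 8.53 CPM in the controls. Within it Sgs3 had at most 2 counts in any library, whereas ng1 had 0, 66 and 62 counts in abd-A libraries, against 0 and 0 in the controls, a gene picked after its values were seen.

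The other cells of the nervous system gave a mixed picture. Of 8 tested glial genes, 2 fell and 2 rose, and their summed level was 413 to 460.1 CPM in the abd-A libraries, against 254 and 326 CPM in the controls. The genes that rose were moody (1.82) and loco (1.69), a receptor and a regulator of G protein signalling. The gene repo, the defining transcription factor of glia, had 7, 9 and 16 counts in abd-A libraries, against 11 and 21 in the controls, and was not called. The glial genes that fell were the transporter Eaat2, with 0, 0 and 0 counts in abd-A libraries, against 28 and 7 in the controls, and the glutamine synthetase Gs2, with 18, 55 and 45 counts in abd-A libraries, against 64 and 120 in the controls. Wrapper was at 0 in all 5 libraries, and alrm was detected only in control replicate 2, with 16 counts. Of 4 tested neuroblast genes, 3 fell and 1 was not called by edgeR. The DESeq2 Wald test called 3 lower, and limma-voom called 1 lower. The progenitor genes that fell had at most 3 counts in any abd-A library: mira had 0, 0 and 0, against 0 and 48 in the controls, wor 1, 0 and 0, against 11 and 36, and ase 0, 1 and 3, against 1 and 56. The other tested gene, insc, stood the other way, with 74, 76 and 79 counts in abd-A libraries, against 0 and 17 in the controls, and was not called (2.31 ± 0.98, edgeR adjusted p = 0.109). It made up most of the summed level of the list in the abd-A libraries, 16.8, 21.0 and 17.5 CPM, against 8.24 and 62.5 CPM in the controls.

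The summed level of the neuronal genes was close in the 2 controls. All 37 summed to 1283, 1477 and 1371 CPM in the abd-A libraries, against 1864 and 2135 CPM in the controls. The 34 genes left when the 3 upregulated ones are set aside, a choice that itself widens the gap, summed to 301, 423 and 329 CPM in the abd-A libraries, against 1573 and 1778 CPM in the controls. Fat body genes summed to 857, 1653 and 507 CPM in the abd-A libraries, against 2771 CPM in control replicate 1 and 22780 CPM in control replicate 2. In the same order of controls, muscle genes summed to 2391 and 4981 CPM, and epidermis and disc genes to 666 and 2164 CPM. Sums of single neuronal roles differed too. RNA-binding proteins were at 220.5 and 451.5 CPM, and transmitter synthesis, transport and breakdown at 237.7 and 124.5 CPM. Single neuronal genes did differ between the controls: 22 of the 37 were higher in control replicate 2 and 15 in control replicate 1, where 55.0% of all genes tested were higher in control replicate 2.

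**Figure D4:**
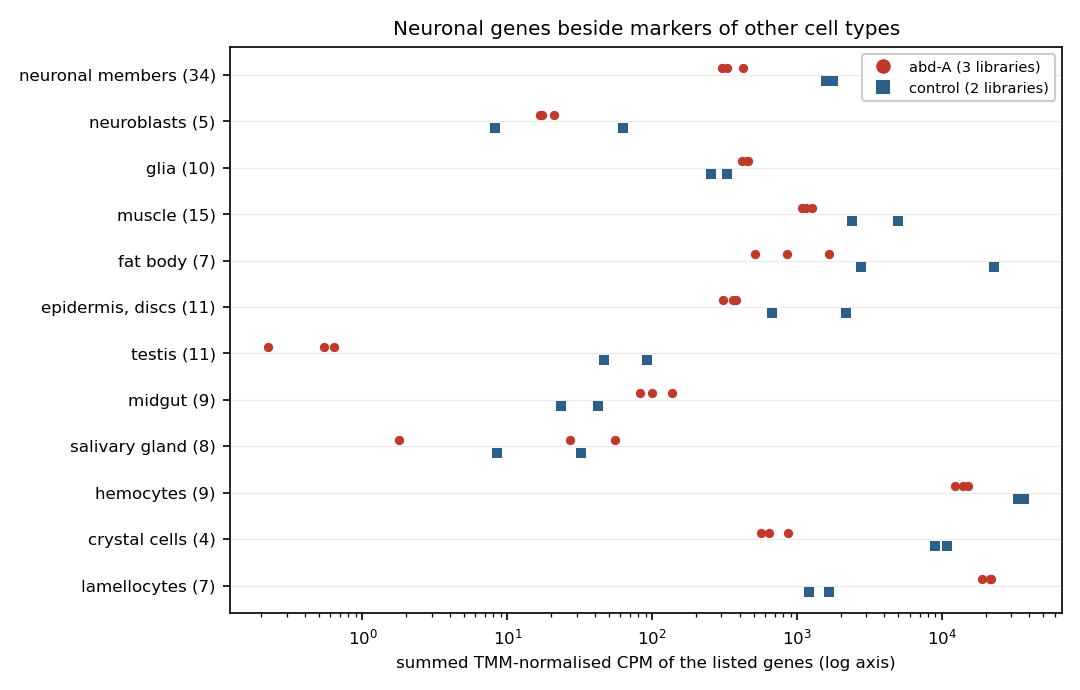
Summed TMM-normalised CPM of each gene list in each library, on a log axis, with 3 abd-A libraries (circles) and 2 control libraries (squares), and the number of genes listed in brackets. The 34 neuronal genes, those left without the upregulated Syx1A, Rop and sei, sit at 301 to 423 CPM in the abd-A libraries and at 1573 and 1778 CPM in the controls. With those 3 the sums are 1283 to 1477 CPM in the abd-A libraries and 1864 and 2135 CPM in the controls. Muscle, fat body, epidermis and testis lists are also lower in the abd-A libraries, glial and midgut lists are higher, and lamellocyte genes are the highest above the controls in absolute CPM.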

How the data were processed

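RNA of hemolymph cells was sequenced as paired reads from stranded libraries. The authors mapped reads to dm6 with STAR 2.5.2 and counted them on genes with HTSeq 0.11.2, per the submitters' processing notes, and the table they deposited gives raw, unnormalized counts for each gene. The annotation release, strand setting and counting mode are not given in the sources used here. Symbols and coordinates (dm6) came from Ensembl release 115, which matched 17710 of 17807 identifiers. Of 239 listed gene names, 3 matched none.

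Genes with at least 10 counts over the 5 libraries were tested with edgeR 4.0.16 (R 4.3.3; TMM, quasi-likelihood F-test, no covariate), with Benjamini-Hochberg adjustment over 11624 genes. A call needed an adjusted p under 0.05 and an absolute log2 fold change of at least 1. The standard error is the absolute fold change over the square root of F. Alternatives used DESeq2 1.42.0, limma 3.58.1, other scalings and filters, a replicate block, and each library left out in turn. The 37 genes and all lists were chosen with earlier results of these data known. All 37 genes were to be described, and at most the 3 largest called changes in each direction, with defining markers, from each other list. Sequences were not used here.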

Additional observations from a re-analysis of the deposited data

How the results depend on the processing

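The 3 upregulated genes were called under every scaling, filter, tool and left-out library tried, and the downregulated count was 21 with DESeq2's size factors, library totals, upper-quartile scaling and no fold threshold. It was 22 with no gene minimum, 21 of 32 tested with filterByExpr, 24 with the DESeq2 Wald test, 26 with limma-voom, 18 with the replicate block, and 15 to 22 with a library left out. With at least 10 counts required in every library, 12 of the 37 genes were tested, 6 were downregulated and 3 upregulated. Of the 21 downregulated genes, 5 kept their call there, and Syt1 was newly called (-1.095, edgeR adjusted p = 0.0420). The median of those 12 genes was -1.40, a smaller fall than the -3.54 of all 37, and that of all genes tested was 0.014. Over all genes, the downregulated count of 1481 was 911 with that filter, 942 with the replicate block, 2154 with the DESeq2 Wald test and 744 to 2094 with a library left out, the lowest without abd-A replicate 1 and the highest without control replicate 2. The upregulated count of 1274 was 817 with the block and 693 to 2278 with a library left out, with the same extremes. The median over all genes shifted with the scaling from -0.17 to -0.32 (DESeq2 size factors), -0.36 (totals) and -0.35 (upper quartile), with 14.6%, 14.8% and 14.8% of genes downregulated and 8.99%, 8.54% and 8.51% upregulated, and that of the 37 genes to -3.69, -3.72 and -3.71. With a library left out, 3 genes changed sign without a call: Rbp9 ran from -0.67 to 0.065 (positive without control replicate 1), brp from -1.65 to 1.25 and Shaw from -3.65 to 4.67 (both positive without control replicate 2). Shab, eag and nAChRbeta1 were called by the DESeq2 Wald test (adjusted p = 0.0151, 0.0176 and 0.0233) and by limma-voom, which also called para and slo. The numbers of the replicates did not pair the samples, with correlations of deviations of 0.018 and -0.0022 for replicates 1 and 2. The replicate block, which leaves out abd-A replicate 3, ended the calls of VAChT (edgeR adjusted p = 0.127), futsch (edgeR adjusted p = 0.130) and nAChRalpha7 (edgeR adjusted p = 0.173). In fits with 1 control left out, the other is assumed to vary like the abd-A libraries. The cause of these shifts was not tested. Of 485 values of the 37 genes under alternatives, 443 kept direction and call. Low counts limit 12 of the 37 genes, which had under 10 counts summed over the abd-A libraries.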

Other observations

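Neuropeptide genes formed a further group of neuronal secretion. Of 21 listed genes of neuropeptides and their processing, 14 could be tested, and their median log2 fold change was -2.10. Of these, 2 (14.3%) were downregulated, near the 12.7% of all genes tested. The DESeq2 Wald test called 5 and limma-voom 6 of them downregulated, where these tools called 18.5% and 17.7% of all genes tested. The prohormone convertase amon, which cuts peptide precursors, had 1, 4 and 0 counts in abd-A libraries, against 42 and 21 in the controls (-5.35 ± 1.28, edgeR adjusted p = 0.0141). Pal2, an enzyme of peptide amidation, had 60, 74 and 27 counts in abd-A libraries, against 76 and 149 in the controls (-2.08 ± 0.49, edgeR adjusted p = 0.0134). Other processing enzymes were well detected in both groups and not called, and their values were looked up after the counts were seen. Phm was at 64.4, 64.3 and 79.2 CPM in the abd-A libraries, against 82.4 and 91.2 CPM in the controls (edgeR adjusted p = 0.350), and Pal1 at 71.1, 71.6 and 74.5 CPM in the abd-A libraries, against 64.6 and 44.2 CPM in the controls (edgeR adjusted p = 0.279).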
